A study of Homo sapiens with 3 samples.

Results

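The hnRNP mRNAs are 10 transcripts that encode heterogeneous nuclear ribonucleoproteins: HNRNPA0, HNRNPA1, HNRNPA2B1, HNRNPC, HNRNPD, HNRNPF, HNRNPH1, HNRNPK, HNRNPL and HNRNPU. They were taken by gene symbol from 36817 gene identifiers, and all 10 were found, each under a single identifier. Their recovery with the RNA helicase DDX6 was followed in 2 DDX6 immunoprecipitation (IP) libraries, set against 1 input library, from eCLIP of MOLM-13, a human acute myeloid leukaemia cell line. In eCLIP, cells are irradiated with ultraviolet light so that protein and RNA become covalently joined, the RNA is trimmed with RNase and recovered with an antibody, and the input is sequenced from the same kind of lysate without that recovery. All libraries came from this line, and the labels give no other treatment or genotype. The labels do not say whether the IP libraries come from different cultures, so a p-value here reflects how much these libraries vary, possibly for technical reasons alone.

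hnRNP proteins coat newly made RNA in the nucleus, choose splice sites, and in several cases travel with the mRNA to the cytoplasm, where they affect its stability and translation. Several hnRNP genes are known to limit their own output by alternative splicing that yields unproductive RNA. DDX6 is a cytoplasmic DEAD-box helicase that holds back translation, helps decapping of mRNA and maintains P-bodies, granules in which untranslated mRNA is stored.

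The tables held 4643494 and 1244213 counted reads in IP replicate 1 and IP replicate 2, against 7807540 in the input. Exonic reads were 67.6% and 62.6% of the IP libraries, against 30.7% of the input. All 10 myeloid markers had at least 10 input reads. Of 11 markers of other lineages 6 had no input read and 2 reached 10 reads. A level is given below as CPM, the usual counts-per-million scale after TMM normalisation, and a fold is the log2 of IP over input with its standard error (SE). Levels are compared between libraries, not between genes, because the tables give no transcript length.

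Relative to the median gene, and with exonic reads counted, 5 of the 10 hnRNP mRNAs were lower in the DDX6 IP than in the input (HNRNPA1, HNRNPA2B1, HNRNPC, HNRNPH1 and HNRNPK), 1 was higher (HNRNPF) and 4 were not called by edgeR's quasi-likelihood test at an adjusted p under 0.05. Over all 10392 genes tested, 11.4% were lower and 16.7% were higher. The median log2 fold of the 10 genes was -0.66, against 0.00 over all genes. The folds ran from -1.60 for HNRNPH1 to 0.76 for HNRNPF, and 3 of the 10 were above 0. With scaling to library size alone, which moved the median gene by 1.24, 4 hnRNP genes were called higher and 0 lower, but relative to that median none of the 10 folds moved by more than 0.01. The test had 1 residual degree of freedom, from the IP pair, and took the spread of the single input to equal theirs. edgeR pooled the spread over features, with prior degrees of freedom of 75.8 for genes and infinite for the regions below. An SE or p-value thus rests mainly on that pooled spread, not on a gene's own IP pair.

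**Figure D1:**
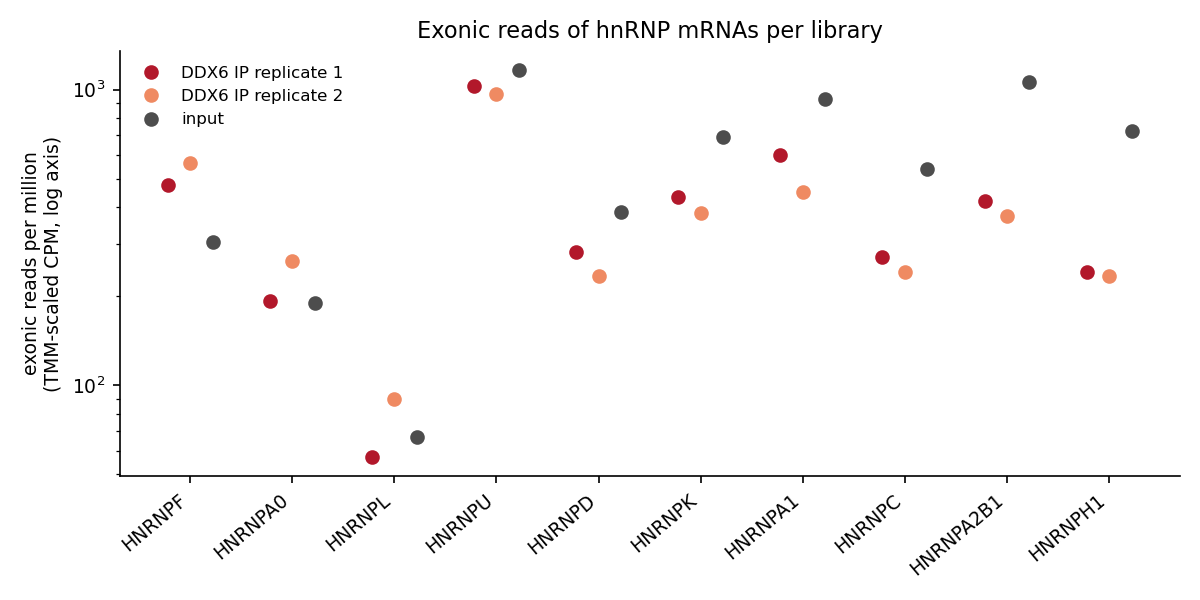
Exonic reads of each hnRNP gene in CPM (log axis) in DDX6 IP replicate 1, DDX6 IP replicate 2 and the input, with genes ordered by fitted fold from highest to lowest. Both IP points lie above the input for HNRNPF and HNRNPA0, the point of IP replicate 1 narrowly so for HNRNPA0, and both lie below it for HNRNPU, HNRNPD, HNRNPK, HNRNPA1, HNRNPC, HNRNPA2B1 and HNRNPH1.

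Among the A/B-type proteins, HNRNPA1 shuttles between nucleus and cytoplasm and represses splice sites. Its mRNA had 603 and 450.5 CPM in the IP libraries, against 928 CPM in the input. That is 1.75-fold lower, with a log2 fold of -0.81 (SE 0.29, edgeR adjusted p = 0.025). HNRNPA2B1, its closest relative here, is known for mRNA transport and for binding microRNAs. Its mRNA had 421 and 372 CPM in the IP, against 1057 CPM in the input, 2.66-fold lower at a log2 fold of -1.41 (SE 0.28, edgeR adjusted p = 4.6e-05). For both genes the input lay above either IP library.

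HNRNPD, also called AUF1, binds AU-rich elements and is known for promoting decay of mRNAs that carry them. HNRNPD had 282 and 235 CPM in the IP, against 385 CPM in the input, and its log2 fold of -0.56 was not called (SE 0.25, edgeR adjusted p = 0.079). HNRNPA0 is encoded by an intronless gene and also binds AU-rich elements. It had 192 and 264 CPM in the IP, against 189.5 CPM in the input, a log2 fold of 0.24 that was not called (SE 0.25, edgeR adjusted p = 0.499). Only IP replicate 2 stood clear of the input for HNRNPA0, with log2 folds of 0.02 and 0.47 in IP replicate 1 and IP replicate 2.

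HNRNPC binds uridine tracts of nascent transcripts as part of the hnRNP particle core. HNRNPC had 272 and 241 CPM in the IP, against 539 CPM in the input, 2.09-fold lower at a log2 fold of -1.07 (SE 0.25, edgeR adjusted p = 0.00063). HNRNPU, the scaffold attachment factor that links RNA to chromatin, averaged 997 ± 39.5 CPM (SD, n = 2) in the IP, against 1164 CPM in the input. Its log2 fold of -0.22 was not called (SE 0.31, edgeR adjusted p = 0.639).

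HNRNPF and HNRNPH1 are close relatives that bind runs of guanosine through quasi-RRM domains, and their mRNAs lay at opposite ends of the 10. HNRNPF had 474 and 565 CPM in the IP, against 305 CPM in the input, 1.70-fold higher at a log2 fold of 0.76 (SE 0.28, edgeR adjusted p = 0.032). HNRNPH1 had 242 and 235 CPM in the IP, against 726 CPM in the input, 3.04-fold lower at a log2 fold of -1.60 (SE 0.26, edgeR adjusted p = 7.4e-07). Of all genes tested, 80.2% had a lower fold than HNRNPF and 3.13% had a lower fold than HNRNPH1. The difference between the 2 genes was not tested. The call of HNRNPF did not hold in 4 of 8 alternatives: the adjusted p was 0.051 with DESeq2's size factors in edgeR, 0.103 with DESeq2, 0.079 with a minimum of 30 reads and 0.199 with no filter, over a range of 6.5e-07 to 0.199.

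HNRNPK, a KH-domain protein, binds cytidine-rich RNA, and it acts both in the nucleus and in translational control. HNRNPK had 432 and 382 CPM in the IP, against 691 CPM in the input, 1.69-fold lower at a log2 fold of -0.76 (SE 0.27, edgeR adjusted p = 0.027). HNRNPL binds CA repeats and is known in blood cells for setting the splicing of CD45. HNRNPL had 57.2 and 89.6 CPM in the IP, against 66.5 CPM in the input, a log2 fold of 0.08 that was not called (SE 0.30, edgeR adjusted p = 0.878). Its IP libraries lay on either side of the input. With DESeq2 the adjusted p of HNRNPA1 was 0.070 and that of HNRNPK 0.080, and with no filter 0.170 and 0.185. Over the alternatives these p ran from 0.0043 to 0.411 for HNRNPA1 and from 0.0014 to 0.640 for HNRNPK. With intronic reads included the log2 fold turned to 0.27 for HNRNPA1 and 0.16 for HNRNPK, neither of them called, and it lay above 0 also relative to the median gene (0.25 and 0.14).

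Split by transcript region, most hnRNP genes were lower in the 3'UTR and in introns, and few were lower in coding sequence or the 5'UTR. The 10 genes gave 37 region counts that passed the read filter, and edgeR called 7 higher and 17 lower. The counts were 1 and 19 with the scaling of the exonic test, which moved the median region by -0.60, and 16 and 11 with library size alone, which moved it by 0.64. HNRNPA0 introns and the HNRNPL 3'UTR had 0 reads in every library, and the HNRNPL 5'UTR had 3 and 2 reads in the IP libraries and 5 in the input. These folds are scaled over exonic and intronic counts together, so they are not the exonic folds above split into parts. Only the order of regions within a gene is independent of the scaling.

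Coding sequence was higher in the IP for HNRNPF and HNRNPA0, lower for HNRNPH1 and not called for the other 7 genes. Over all genes with testable coding sequence, 51.2% were higher and 0.208% were lower. The median log2 fold of coding sequence was 0.46 for the 10 genes and 1.02 for all genes. HNRNPF coding sequence had 142 and 169 CPM in the IP, against 43.8 CPM in the input, 3.52-fold higher at a log2 fold of 1.82 (SE 0.35, edgeR adjusted p = 7.5e-07). HNRNPA0 coding sequence had 27.8 and 40.6 CPM in the IP, against 13.0 CPM in the input, a log2 fold of 1.35 (SE 0.39, edgeR adjusted p = 0.0014), a call lost with DESeq2 (adjusted p = 0.053) and with the scaling of the exonic test (0.087). HNRNPH1 coding sequence had 117 and 111 CPM in the IP, against 185 CPM in the input, a log2 fold of -0.70 (SE 0.31, edgeR adjusted p = 0.046). HNRNPF and HNRNPA0 lay above the all-gene median, and HNRNPH1 was 1 of 17 genes called lower in coding sequence. The HNRNPH1 call is close to the threshold and was lost with DESeq2's size factors in edgeR (adjusted p = 0.068), with DESeq2 (0.146), with a minimum of 30 reads (0.150), with library sizes over unfiltered counts (0.062) and with library size alone (0.871), the highest of its alternatives.

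The 3'UTR was lower in the IP for 6 of 9 genes, higher for HNRNPF and HNRNPA0, and not called for HNRNPU. Over all genes, 6.83% of 3'UTRs were lower and 23.9% were higher, with a median log2 fold of 0.28 against -0.84 for the hnRNP genes. HNRNPH1 had 23.9 and 12.5 CPM of 3'UTR reads in the IP, against 78.5 CPM in the input, 3.97-fold lower at a log2 fold of -1.99 (SE 0.33, edgeR adjusted p = 9.4e-09). HNRNPA2B1 had 119 and 100.1 CPM in the IP, against 325 CPM in the input, 2.95-fold lower at -1.56 (SE 0.32, edgeR adjusted p = 3.9e-06). HNRNPK had 63.1 and 47.7 CPM in the IP, against 131 CPM in the input, 2.32-fold lower at -1.22 (SE 0.31, edgeR adjusted p = 0.00023). In these 3 genes the IP libraries lay well below the input.

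The other called 3'UTRs changed less. The log2 fold was -0.87 for HNRNPD (edgeR adjusted p = 0.011), -0.84 for HNRNPC (0.014) and -0.70 for HNRNPA1 (0.048). The HNRNPF 3'UTR was higher at a log2 fold of 0.92 (edgeR adjusted p = 0.011) and that of HNRNPA0 at 0.72 (0.048). HNRNPU, with 241 and 213 CPM in the IP against 257 CPM in the input, had a fold of -0.18 that was not called. With DESeq2 the calls of HNRNPA0, HNRNPA1, HNRNPC, HNRNPD and HNRNPF were lost, at adjusted p between 0.054 and 0.158, and those of HNRNPH1, HNRNPA2B1 and HNRNPK held. With the scaling of the exonic test both higher calls were lost, at 0.32 for HNRNPF (edgeR adjusted p = 0.439) and 0.13 for HNRNPA0 (0.770).

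The 5'UTR was higher in the IP for HNRNPF, HNRNPK and HNRNPU, lower for HNRNPH1 and not called for the other 5 genes tested. Over all genes, 33.2% of 5'UTRs were higher and 4.49% were lower. HNRNPK had 30.6 and 43.8 CPM of 5'UTR reads in the IP, against 15.4 CPM in the input, 2.34-fold higher at a log2 fold of 1.22 (SE 0.38, edgeR adjusted p = 0.0031). HNRNPF had 32.7 and 65.7 CPM in the IP, against 18.3 CPM in the input, a log2 fold of 1.35 (SE 0.36, edgeR adjusted p = 0.00059). HNRNPU had 48.3 and 63.3 CPM in the IP, against 26.7 CPM in the input, a log2 fold of 1.04 (SE 0.35, edgeR adjusted p = 0.0061). Both IP libraries lay above the input in these 3 genes. HNRNPH1 had 16.4 and 21.9 CPM in the IP, against 41.7 CPM in the input, a log2 fold of -1.18 (SE 0.36, edgeR adjusted p = 0.0023). HNRNPA1 rested on 13 and 13 IP reads, against 24 input reads, and its IP libraries lay on either side of the input, at log2 folds of -0.69 and 1.07. With DESeq2 the 5'UTR calls of HNRNPK, HNRNPU and HNRNPH1 were lost, at adjusted p of 0.070, 0.078 and 0.120, and that of HNRNPF held. With the scaling of the exonic test all 3 higher calls were lost, at 0.77 for HNRNPF (edgeR adjusted p = 0.062), 0.63 for HNRNPK (0.150) and 0.45 for HNRNPU (0.280).

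Introns were lower in the IP for all 9 hnRNP genes that have intronic reads, against 83.0% of introns lower and 2.57% higher over all genes. The intron log2 folds ran from -2.66 for HNRNPH1 to -1.38 for HNRNPK. Their median was -1.85, against -1.93 over all genes, so the intron counts of the hnRNP genes did not stand apart from the background. HNRNPH1 introns had 116 and 92.2 CPM in the IP, against 662 CPM in the input, 6.30-fold lower (edgeR adjusted p = 1.2e-13). HNRNPD introns had 31.0 and 33.6 CPM in the IP, against 198 CPM in the input, 6.17-fold lower (edgeR adjusted p = 1.1e-14).

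**Figure D2:**
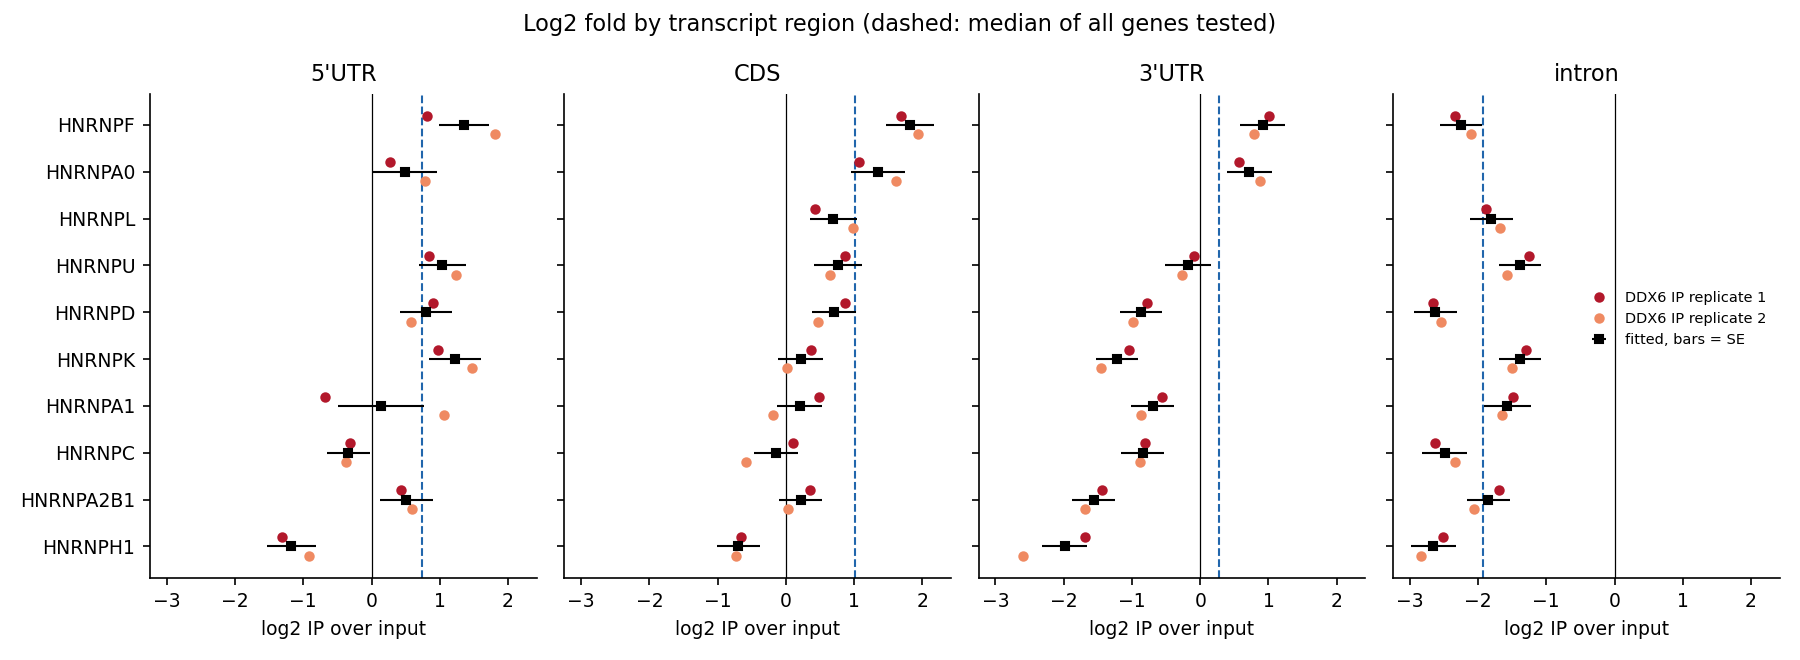
Log2 fold of DDX6 IP over input by transcript region for each hnRNP gene, as values of each IP library (circles) and the fitted value with its SE (squares), with the all-gene median as a dashed line. Among 3'UTRs only HNRNPF at 0.92 and HNRNPA0 at 0.72 lie above the all-gene median of 0.28, and all 9 intron values lie below 0.

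The make-up of each gene's own reads shows the same regions without any scaling between libraries. HNRNPF reads were in introns for 9.53% (exact Clopper-Pearson 95% interval 8.17 to 11.04) and 9.86% (7.38 to 12.8) in the IP libraries, against 56.3% (53.8 to 58.8) in the input. HNRNPC had 36.1% (33.5 to 38.7) and 45.1% (39.8 to 50.5) of its reads in introns in the IP, against 73.2% (71.9 to 74.5) in the input. HNRNPH1 had 42.5% (39.8 to 45.2) and 38.8% (33.3 to 44.5) in the IP, against 68.4% (67.1 to 69.7) in the input. All 3 genes had a smaller intron share in both IP libraries than in the input, and HNRNPF had the smallest of these 3 in the IP. HNRNPA1 was lower still, at 4.50% and 5.56% in the IP, against 11.9% in the input. Of all counted reads, 25.8% and 28.5% were intronic in the IP libraries, against 65.5% in the input. Intervals of shares cover counting error only.

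In HNRNPC the 5'UTR held 25.3% (23.0 to 27.7) and 24.7% (20.3 to 29.6) of reads in the IP, against 10.3% (9.39 to 11.2) in the input. This larger share went with the smaller intron share given above, not with a higher 5'UTR level. HNRNPC 5'UTR reads were at 70.0 and 67.2 CPM in the IP, against 87.0 CPM in the input. The log2 fold of -0.34 was not called (SE 0.31, edgeR adjusted p = 0.364). The HNRNPK 5'UTR held 9.29% (7.92 to 10.8) and 15.7% (12.1 to 19.9) of its reads in the IP, against 3.75% (2.99 to 4.64) in the input. HNRNPK 3'UTR reads went the other way, with 19.1% (17.3 to 21.1) and 17.1% (13.3 to 21.4) in the IP, against 31.9% (29.9 to 33.9) in the input. Coding sequence took a larger share in both IP libraries than in the input for all 10 genes, as it did for 94.9% of all genes. The intervals of both IP libraries lay above that of the input for 9 of them, against 66.7% of all genes, an interval that depends on a gene's depth. For HNRNPA0 the shares were 22.3% (19.0 to 25.8) and 24.9% (19.2 to 31.3) in the IP, against 16.2% (12.8 to 20.1) in the input.

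**Figure D3:**
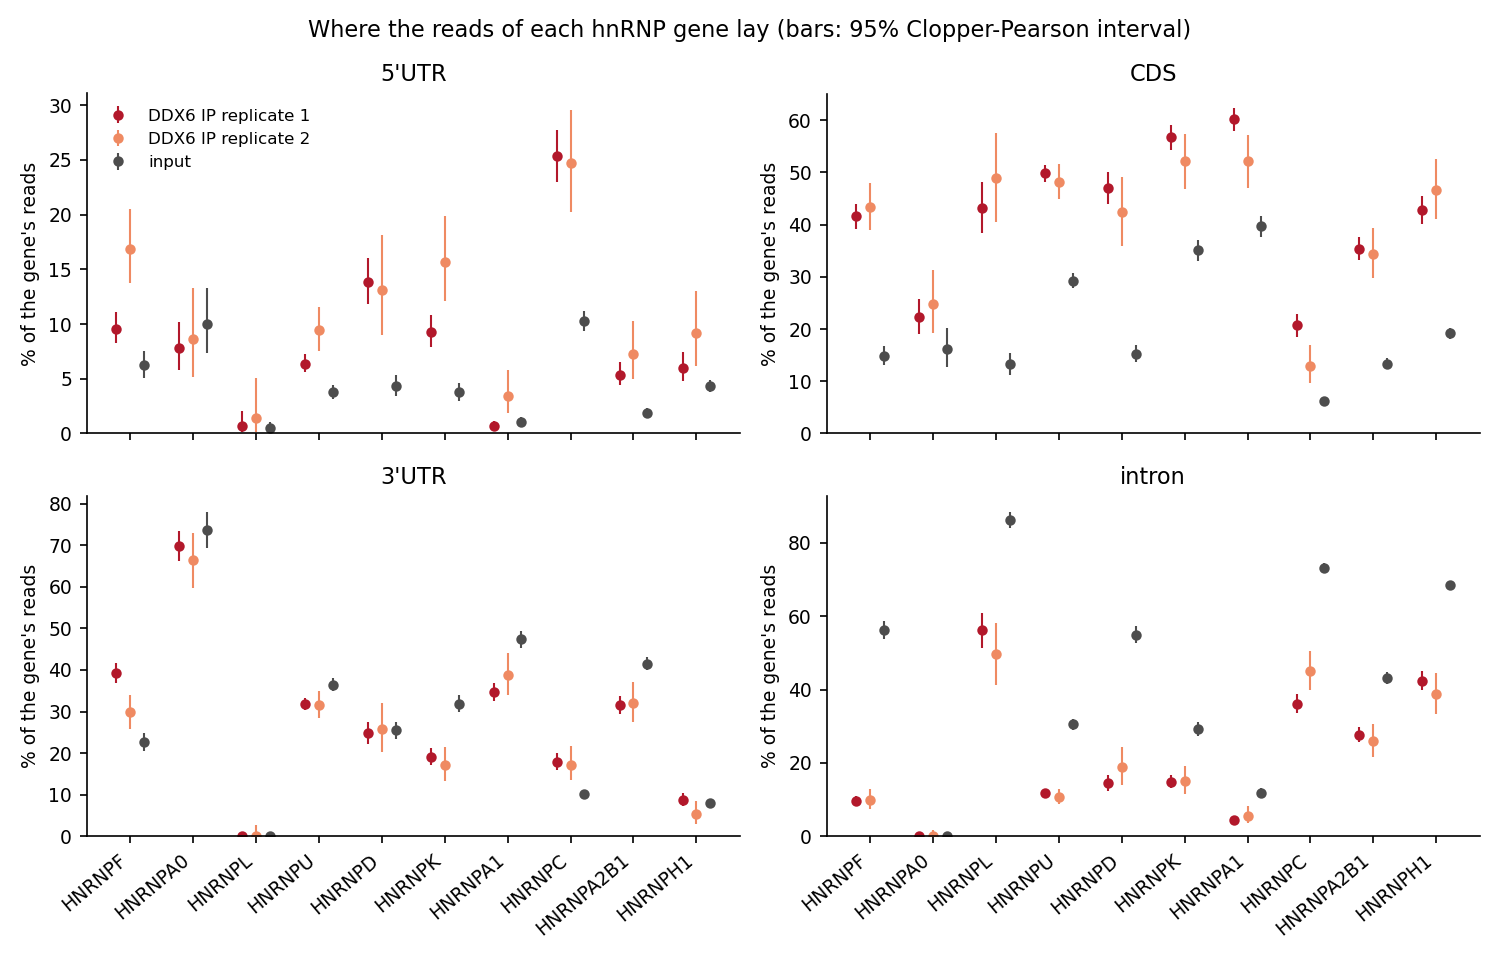
Percent of each hnRNP gene's reads that lay in the 5'UTR, coding sequence (CDS), 3'UTR and introns in DDX6 IP replicate 1, DDX6 IP replicate 2 and the input, with exact 95% intervals. The CDS share is larger in the IP libraries for every gene, and the intron share is larger in the input for the 9 genes with intronic reads.

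Each region was then tested against the other regions of its own gene, a comparison that does not depend on scaling (edgeR diffSpliceDGE, adjusted over all gene regions). Coding sequence exceeded the rest of the gene in 7 of 10 hnRNP genes, against 73.8% of all genes, and the 5'UTR did so in 6 of 9, against 46.3%. No hnRNP 5'UTR was called below the rest of its gene, against 1.4% of all genes. Introns were below the rest of the gene in 8 of 9, against 65.5%. The HNRNPA2B1 intron missed the threshold (log2 difference -0.67, adjusted p = 0.056). The 3'UTR was called higher in 1 of 9 genes, against 40.8% of all genes, and lower in 1 of 9, against 1.49%. The higher one was HNRNPC, at 0.78 (edgeR adjusted p = 0.032), whose rest is mostly intron. With exonic regions alone the HNRNPC 3'UTR stood at -0.37 (adjusted p = 0.651).

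Among exonic regions alone, HNRNPK had 2 of the 3 calls. Its 3'UTR was lower than its other exonic regions by a log2 difference of -1.05 (edgeR diffSpliceDGE adjusted p = 0.033), and its 5'UTR was higher by 1.39 (adjusted p = 0.023). The HNRNPA2B1 5'UTR was higher by 1.33 (adjusted p = 0.043). The other 24 of 27 exonic regions were not called in this test. Over all genes it called 4.22% of 5'UTRs higher and 3.16% lower, 0.0913% of 3'UTRs higher and 1.67% lower, and 1.85% of coding sequences higher and 0.0149% lower.

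Coding sequence had a higher log2 fold than the 3'UTR in each of the 9 hnRNP genes with both regions, in both IP libraries, as it did in 78.6% of all genes with both. The differences ran from 0.63 in HNRNPA0 to 1.78 in HNRNPA2B1, with a median of 0.95, against 0.83 over 6552 genes. HNRNPA2B1 stood at 1.80 and 1.73 in IP replicate 1 and IP replicate 2, and 91.8% of all genes had a smaller difference. HNRNPD stood at 1.65 and 1.45, with 86.2% of all genes below it.

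The 3'UTR was also close to the introns in several of these genes. The 3'UTR fold exceeded the intron fold by 0.17 in HNRNPK and by 0.29 in HNRNPA2B1, against an all-gene median of 2.27. Only 3.26% and 4.08% of all genes had a smaller difference than HNRNPK and HNRNPA2B1. HNRNPH1 followed at 0.67 and HNRNPA1 at 0.87. HNRNPF was the only gene of the 8 above the all-gene median, at 3.17. These positions describe the fitted values and were not tested beyond the calls given above.

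**Figure D4:**
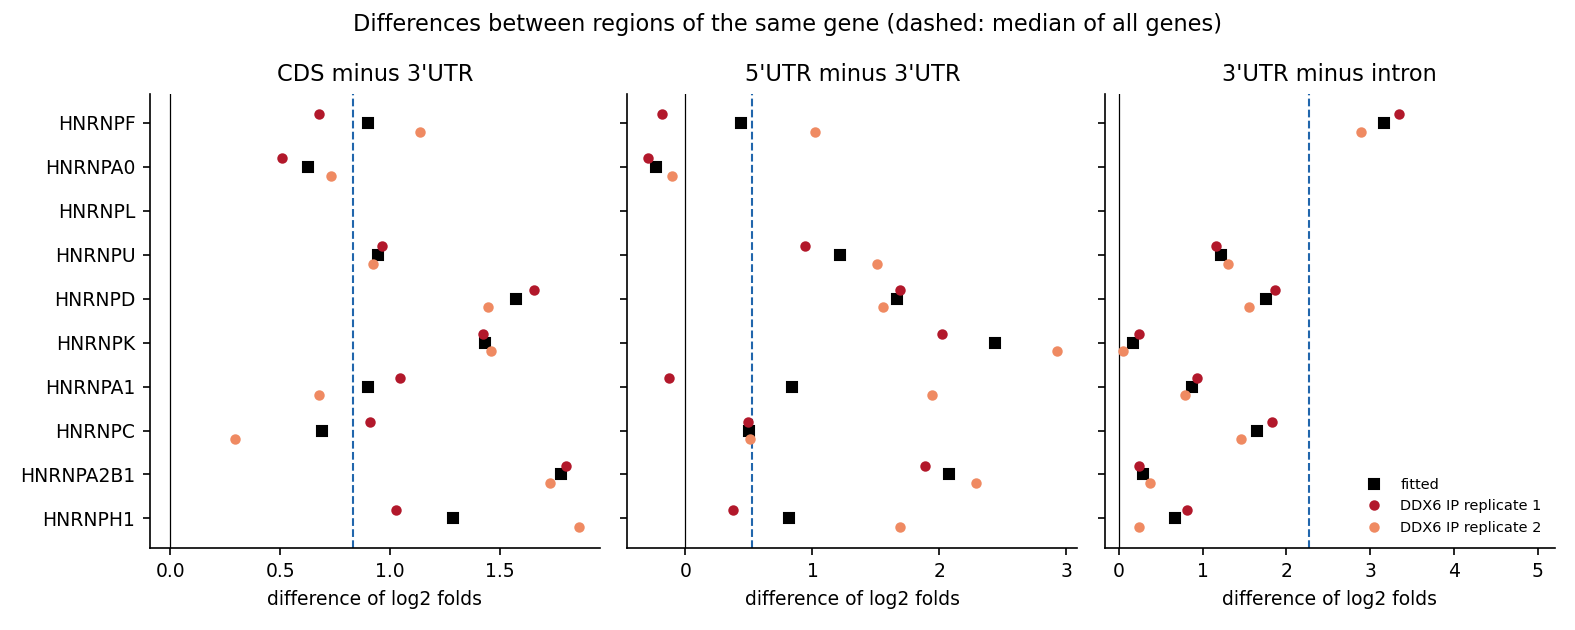
Difference between the log2 folds of 2 regions of the same gene, for each IP library (circles) and the fit (squares), with the all-gene median as a dashed line. CDS minus 3'UTR is above 0 in all 9 genes shown, and 3'UTR minus intron is below the all-gene median of 2.27 in all but HNRNPF.

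Over all genes, the intronic reads that remained lay nearer to splice sites in the IP than in the input, and some hnRNP genes showed the same. The tables count intronic reads in 5' and 3' splice-site windows apart from other intron positions. In HNRNPK these windows held 53.9% (47.4 to 60.4) and 59.3% (45.0 to 72.4) of intronic reads in the IP, against 33.2% (29.6 to 37.1) in the input. In HNRNPA2B1 they held 50.7% (46.3 to 55.1) and 44.7% (34.9 to 54.8) in the IP, against 30.4% (28.3 to 32.6) in the input. HNRNPU showed little difference, with 44.6% (39.9 to 49.4) and 41.3% (31.1 to 52.1) in the IP, against 40.7% (37.9 to 43.7) in the input. For HNRNPD the IP libraries differed, with 24.2% (17.6 to 31.8) and 9.30% (2.59 to 22.1), against 10.7% (8.86 to 12.7) in the input. Over all genes the windows held 15.8% and 15.5% of intronic reads in the IP libraries, against 8.36% in the input.

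Peaks, regions that the authors called in each IP library, gave another view of the same reads. Each carries the authors' log2 fold over the input and -log10 p. A listed peak need not be enriched over the input. The hnRNP genes had 300 peaks in IP replicate 1 and 202 in IP replicate 2. Their log2 fold was above 0 in 258 and 165, against 114953 of 123298 and 60588 of 62411 peaks over all genes. None of the 300 reached a log2 fold of 3 with a -log10 p of 3, against 11.5% of all peaks in that list. In IP replicate 2 the count was 2 of 202, against 12.9% of all peaks. Both were in HNRNPF, in coding sequence and in the 5'UTR. At a -log10 p of at least 5 the counts were again 0 and 2, against 8.52% and 5.81% of all peaks.

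A looser threshold pair was a log2 fold of at least 1 with a -log10 p of at least 3. It was passed by 156 of 300 peaks (52.0%) in IP replicate 1, against 34.3% of all peaks. IP replicate 2 had 46 of 202 (22.8%), against 23.9%. The larger share in IP replicate 1 does not mean higher folds. The median log2 fold of the hnRNP peaks there was 1.08, against 1.77 over all peaks. For IP replicate 2 these medians were 0.81 and 2.29. All 15 HNRNPF peaks passed in IP replicate 1, and 11 of 12 in IP replicate 2. HNRNPH1 was at the other end, with 5 of 40 and 0 of 21. HNRNPA1 differed between the libraries, with 29 of 39 in IP replicate 1 and 3 of 25 in IP replicate 2. Some listed peaks abut, as at chr12:54675251-54675283 and chr12:54675284-54675286 of HNRNPA1 in IP replicate 1. A count of peaks is therefore not a count of separate sites. Of the peaks that passed, 44 of 156 (28.2%) in IP replicate 1 overlapped one of IP replicate 2 by at least 1 base, and 33 of 46 (71.7%) the reverse. Where the overlap had to cover a larger part of both peaks, these were 24 of 156 (15.4%) and 24 of 46 (52.2%). The overlap over all peaks was not computed, so these shares have no background and describe the hnRNP peaks only. IP replicate 2 had fewer reads, and the part of depth in these counts was not tested.

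The strongest site was in HNRNPF coding sequence on the minus strand. In IP replicate 2 it spanned chr10:43882288-43882403 (build hg19), with the authors' log2 fold of 3.54 and -log10 p of 51.2. The overlapping peak of IP replicate 1 spanned chr10:43882295-43882414, with a log2 fold of 2.69 and a -log10 p of 37.5. The authors' list of 1587 reproducible peaks holds the interval of IP replicate 2 with a log2 fold of 3.09 and a -log10 p of 36.2. It was the only entry of that list that overlapped a peak of the 10 genes. The same count for other genes was not computed, so this one has no background. The other HNRNPF peak past a fold of 3 lay in the 5'UTR at chr10:43890084-43890117, with a log2 fold of 3.06, in IP replicate 2 alone.

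In 8 other genes a peak of log2 fold at least 1 was shared by both IP lists. The HNRNPU site in coding sequence had log2 folds of 2.56 and 2.49 in IP replicate 1 and IP replicate 2, where the peaks overlap at chr1:245027116-245027197. The HNRNPC site in the 5'UTR had 2.31 and 1.76, overlapping at chr14:21737482-21737585. The HNRNPD site had 2.29 and 2.37, overlapping at chr4:83294840-83294903, and the authors annotated it to the 5'UTR in IP replicate 1 and to coding sequence in IP replicate 2. The HNRNPK site in coding sequence had 2.20 and 2.22, at chr9:86586934-86586971.

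HNRNPA0 and HNRNPL shared sites in coding sequence, at chr5:137089297-137089322 with log2 folds of 1.86 and 2.98, and at chr19:39340513-39340570 with 2.59 and 2.64. The HNRNPA1 site was in the 3'UTR, at chr12:54680737-54680754, with 2.01 and 2.53. HNRNPA2B1 had the weakest, in coding sequence at chr7:26236601-26236623, with 1.13 and 1.18. HNRNPH1 had no shared site.

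**Figure D5:**
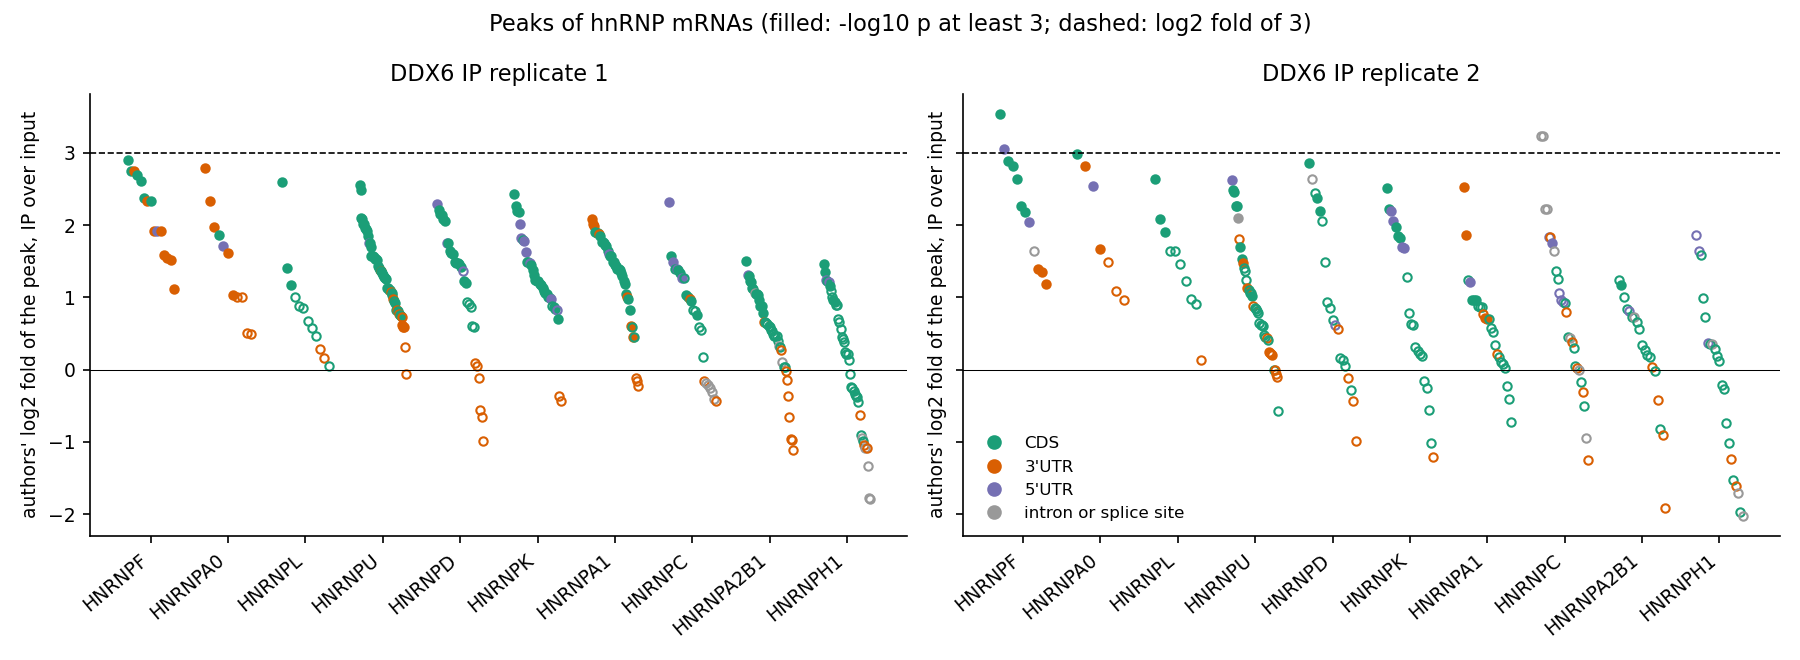
Authors' log2 fold of IP over input for every peak of each hnRNP gene in DDX6 IP replicate 1 and DDX6 IP replicate 2, coloured by region, filled where -log10 p is at least 3. Only HNRNPF has filled points above the dashed line at 3, both in IP replicate 2, and HNRNPH1 has none filled in IP replicate 2.

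Introns held 13 of 300 (4.33%) and 15 of 202 (7.43%) of the peaks, against 15.5% and 11.6% of all peaks in the lists of IP replicate 1 and IP replicate 2. Coding sequence held 203 (67.7%) and 124 (61.4%), against 54.6% and 58.1%. HNRNPC had 5 and 8 of these intronic peaks, and HNRNPH1 had 5 and 3. Those of IP replicate 1 all lay below the input, with highest log2 folds of -0.18 for HNRNPC and -0.94 for HNRNPH1. The highest of HNRNPH1 in IP replicate 2 was 0.36. The highest intronic peak of HNRNPC, in IP replicate 2, had a log2 fold of 3.23 but a -log10 p of 1.67, so it passed neither threshold pair. For HNRNPL another 8 and 5 peaks carry its symbol jointly with that of an overlapping gene, AC104534.3, and were not counted here. Of its own peaks 2 and 1 are annotated to the 3'UTR, although the read tables list 0 reads there, so the exonic level of HNRNPL rests on coding and 5'UTR reads.

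HNRNPA1 and HNRNPK have processed pseudogenes, and reads can be split between such copies. The 41 HNRNPA1 copies in the tables held 73 and 16 reads in the IP libraries and 50 in the input, against 1931, 357 and 2052 exonic reads of HNRNPA1 itself. The 4 HNRNPK copies held 43, 21 and 20 reads, against 1384, 303 and 1527 exonic reads of HNRNPK itself. Copies of HNRNPC, HNRNPD, HNRNPH1 and HNRNPU were listed too, with at most 6 reads per gene in any library. The tables do not show how reads that match several copies were treated, so the values of all these genes are uncertain to that extent.

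Related genes gave a frame for these values. Of 17 other hnRNP family genes, 0 were higher, 4 were lower and 13 were not called in the exonic test, with a median log2 fold of -0.33. HNRNPA3, the closest relative of HNRNPA2B1 among them, had 145 and 98.4 CPM in the IP, against 416 CPM in the input, a log2 fold of -1.73 (edgeR adjusted p = 2e-08). HNRNPAB was lower at -0.85 (edgeR adjusted p = 0.0051) and RBMX at -0.79 (0.0093). The count of 0 higher comes from edgeR. At an unadjusted p under 0.05 it would be 1, PCBP1, with a log2 fold of 0.63 (unadjusted p = 0.025, edgeR adjusted p = 0.077). Of 17 SR and SR-related splicing factor genes 15 were tested: 6 were lower, 1 was higher and 8 were not called, with a median log2 fold of -0.57. SRSF2 was lower at -1.21 (edgeR adjusted p = 0.00011), SRSF11 at -1.08 (0.00021), and SON was higher at 1.49 (0.00036).

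The median log2 fold of coding sequence was 0.46 in the 10 hnRNP genes, 0.74 in the other hnRNP family and 0.73 in the SR list. In the 3'UTR it was -0.84, -0.61 and -0.68, in the 5'UTR 0.51, 0.44 and 0.87, and in introns -1.85, -1.99 and -1.83. All 3 lists thus had a 3'UTR median below 0, where the all-gene median was 0.28; no test compared the lists.

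The genes outside the family whose profile was most like the median profile of the 10 were sought over 3864 genes with at least 100 mean exonic reads. The measure was the Euclidean distance over 6 log2 folds, for coding sequence, 3'UTR and intron in each IP library. The nearest were PDHA1 at 0.29, MAGT1 at 0.40, FANCD2 at 0.41, PAPOLA at 0.43 and NDUFA10 at 0.43. The 8 hnRNP genes with values in all 3 regions lay between 0.75 (HNRNPA1) and 3.25 (HNRNPF) from their own median profile, with HNRNPH1 at 2.64.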

How the data were processed

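Each library has a table of whole-number read counts, as deposited by the authors, with genes as lines and transcript regions as columns. Peak lists deposited by the authors for each IP library hold a -log10 p, whose highest value is 400, and a log2 fold of IP over input. Both measures also stand in their list of reproducible peaks, and how it was made is not stated. The submitters' processing notes name STAR, cutadapt, UMI-tools and SAMtools, and build hg19. For the peak caller, counter, annotation and strand setting the sources used here give nothing.

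Column totals and intergenic reads were left out (4.05% and 3.78% of the IP libraries, and 2.63% of input reads). Of 29754 Ensembl identifiers, 28576 matched a symbol. Genes, or gene regions, that reached 10 reads in 2 or more of the 3 libraries were tested with edgeR 4.0.16 (R 4.3.3; TMM, glmQLFit, glmQLFTest; diffSpliceDGE for regions within genes), with Benjamini-Hochberg adjustment over all features and a threshold of 0.05. Intron counts sum the splice-site, proximal and distal columns. Library sizes were summed over features that passed the filter. A prior count of 2 entered the fold of each replicate. The common dispersion corresponded to a coefficient of variation of 16.5% for genes and 18.9% for regions. Peaks were counted from a log2 fold of 3 and a -log10 p of 3, and matched between lists by 1 base on the same strand. DESeq2 1.42.0 was an alternative. The tests were checked on simulated counts. The 10 genes, the lists of other hnRNP, SR and marker genes and the tests were chosen with earlier results of these data known. Every hnRNP gene is named, the 3 genes with the smallest p in each other list, and the 5 with the nearest profile; PCBP1 was named after its value was seen.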

Additional observations from a re-analysis of the deposited data

How the results depend on the processing

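No paired analysis was possible because there was 1 input library for 2 IP libraries. With 1 IP library against 1 input there is no residual degree of freedom, so leaving out a replicate gave values without a test. The exonic log2 fold of HNRNPL was 0.42 without IP replicate 1 and -0.22 without IP replicate 2, and no other exonic fold changed sign. Without IP replicate 1, 1 of 37 region folds and 6 of 37 values against the rest of the gene moved by more than the replicate SD. Leaving out 1 of 2 values moves a plain mean by less than their SD, so these counts are a weak measure of stability. The peak counts in each list alone were 2 without IP replicate 1 and 0 without IP replicate 2.

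In the exonic test (1 hnRNP gene higher, 5 lower; 1739 and 1188 of all genes), 0 hnRNP genes were higher and 5 lower with DESeq2's size factors. DESeq2 gave 0 and 3 (678 and 254 of all genes), no filter 0 and 3, and a minimum of 30 reads 0 and 5 (1100 higher of all genes). Library size alone moved the median gene by 1.24 and gave 4 and 0 (6990 and 141 of all genes), turning HNRNPA1 to 0.43, HNRNPC to 0.17, HNRNPD to 0.67, HNRNPK to 0.47 and HNRNPU to 1.01; relative to that median no fold moved by more than 0.01. Adding intronic reads gave 3 and 3 (2394 lower of all genes) and turned HNRNPA1 to 0.27, HNRNPK to 0.16, HNRNPU to 0.61 and HNRNPL to -0.51; these turns held relative to the median gene, where folds moved by up to 1.16. Counts of coding and 3'UTR reads alone gave 1 and 6, the sixth being HNRNPD.

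In the region test (7 higher, 17 lower; 7054 and 9183 of all regions), library size alone gave 16 and 11 (11607 higher of all regions). DESeq2 gave 2 and 12 (3381 and 5859 of all regions). The scaling of the exonic test gave 1 and 19 (3451 higher of all regions), no filter 3 and 17, and a minimum of 30 reads 11 and 14. These settings moved the median region by 0.64, 0.00, -0.60, 0.30 and 0.11. Library sizes over unfiltered counts gave 10 and 15, a setting chosen after seeing the data. Against the rest of the gene (14 higher, 9 lower; 9694 and 5285 of all regions), exonic regions alone gave 2 and 1 (215 and 181 of all regions), with HNRNPC 3'UTR at -0.37 and HNRNPF 5'UTR at -0.0044. A minimum of 30 reads left 6323 of all regions higher. At a peak log2 fold of 1, the counts were 156, 46 and, in both lists, 44. The causes were not tested.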
